A study of Mus musculus with 32 samples.

Results

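Protein kinase A (PKA), the kinase that cyclic AMP (cAMP) switches on, was described through 9 genes of the 24952 in the tables. They were the regulatory subunits Prkar1a, Prkar1b, Prkar2a and Prkar2b, the catalytic subunits Prkaca and Prkacb, the cAMP phosphodiesterases Pde4b and Pde4d, and Myo5a, which encodes the motor protein myosin Va. The genes were taken by symbol from a list made with earlier results of these data known, and the question was whether Prkar1a was raised at the neuromuscular junction (NMJ) alone or together with other subunits. RNA had been sequenced from laser-captured pieces of the tibialis anterior (TA) muscle of wild type male C57BL/6JRj mice, in 32 libraries. NMJ regions were recognized by α-bungarotoxin, a toxin that binds acetylcholine receptors, and xNMJ regions held muscle outside the synapse. Each of the 4 groups had 8 libraries. They are named 10m NMJ and 10m xNMJ for mice aged 10 months, and 30m NMJ and 30m xNMJ for mice aged 30 months. All mice had lived in single cages on an AIN93M diet, the older ones for a longer period, so that age and time on the diet cannot be told apart. The libraries held between 4026648 and 16516788 counts. The TMM factors, which scale the library totals, did not overlap between regions, from 0.686 to 1.02 in xNMJ and from 1.12 to 1.35 in NMJ. The average insert size given in the labels also moved with region at 10 months, from 79 to 108 in xNMJ and from 109 to 131 in NMJ except replicate 8 at 52. At 30 months it was 79 to 130 in xNMJ and 101 to 129 in NMJ. The part of these differences in the results was not tested beyond a fit with insert size as a covariate. The labels do not say which libraries came from the same animal, and p values therefore measure the spread between libraries.

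Regulatory subunits of PKA hold the catalytic subunits inactive until cAMP binds them. Prkar1a and Prkar1b form type I holoenzymes and Prkar2a and Prkar2b form type II holoenzymes, which A-kinase anchoring proteins place at different sites in the cell. Phosphodiesterases break cAMP down and so limit where the kinase is active. At the NMJ, the product of Prkar1a is known from earlier work to act with myosin Va in keeping acetylcholine receptors at the synapse.

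Prkar1a was by far the most abundant PKA transcript of NMJ regions and the only subunit whose NMJ and xNMJ libraries did not overlap. In TPM, a scale of transcript abundance that corrects for transcript length and library total, Prkar1a ranged from 526 to 1092 in 10m NMJ, with a median of 863. In 10m xNMJ it ranged from 7.29 to 40.6 TPM, with a median of 12.9. At 30 months it ranged from 784 to 1271 TPM in NMJ (median 1055) and from 5.66 to 128 TPM in xNMJ (median 12.5). The lowest NMJ library was thus above the highest xNMJ library at both ages. Among the 13990 tested genes, NMJ lay above xNMJ without overlap in 3.69% at 10 months and 4.11% at 30 months. The opposite pattern, NMJ below xNMJ without overlap, was held by 0.136% and 0.00715% of the tested genes and by no PKA subunit. The means of Prkar1a were 854 ± 184 TPM at the NMJ and 15.4 ± 10.6 TPM outside it at 10 months, and 1034 ± 178 and 25.5 ± 41.6 TPM at 30 months (SD, n = 8), so that the ratio of the means was 55.3 at 10 months and 40.5 at 30 months, or 95.1 at 30 months without 30m xNMJ replicate 5. Behind these values stood 2249 reads over the 8 libraries of 10m xNMJ and 195240 reads over those of 10m NMJ. In captured tissue, more cells of a type and more RNA per cell cannot be told apart.

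The gene (ENSMUSG00000020612) lies on the plus strand of chromosome 11 of GRCm38, from 109649405 to 109669656. None of the 4037 stretches of 31 bases in its protein-coding transcripts was found in a protein-coding transcript of another gene. Transcripts of other types, such as those of pseudogenes, were not searched. In the edgeR quasi-likelihood test of the counts, with TMM normalization and Benjamini-Hochberg adjustment over all 13990 tested genes, Prkar1a was higher in NMJ by a log2 fold change of 5.31 (standard error, SE, 0.54, adjusted p = 1.3e-08) at 10 months. At 30 months the change was 4.57 (adjusted p = 2.0e-07 by edgeR, SE 0.52). By p value Prkar1a stood at rank 17 and rank 18 of the 13990 genes, and by fold change at rank 125 and rank 116. Over all tested genes, 6.5% were higher and 5.05% lower in NMJ at 10 months at an adjusted p under 0.05. At 30 months these shares were 5.0% and 4.25%. Of the 5 PKA subunits that passed the filter on low counts, 1 was higher and 0 were lower in NMJ at each age, and the gene that was higher was Prkar1a.

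**Figure D1:**
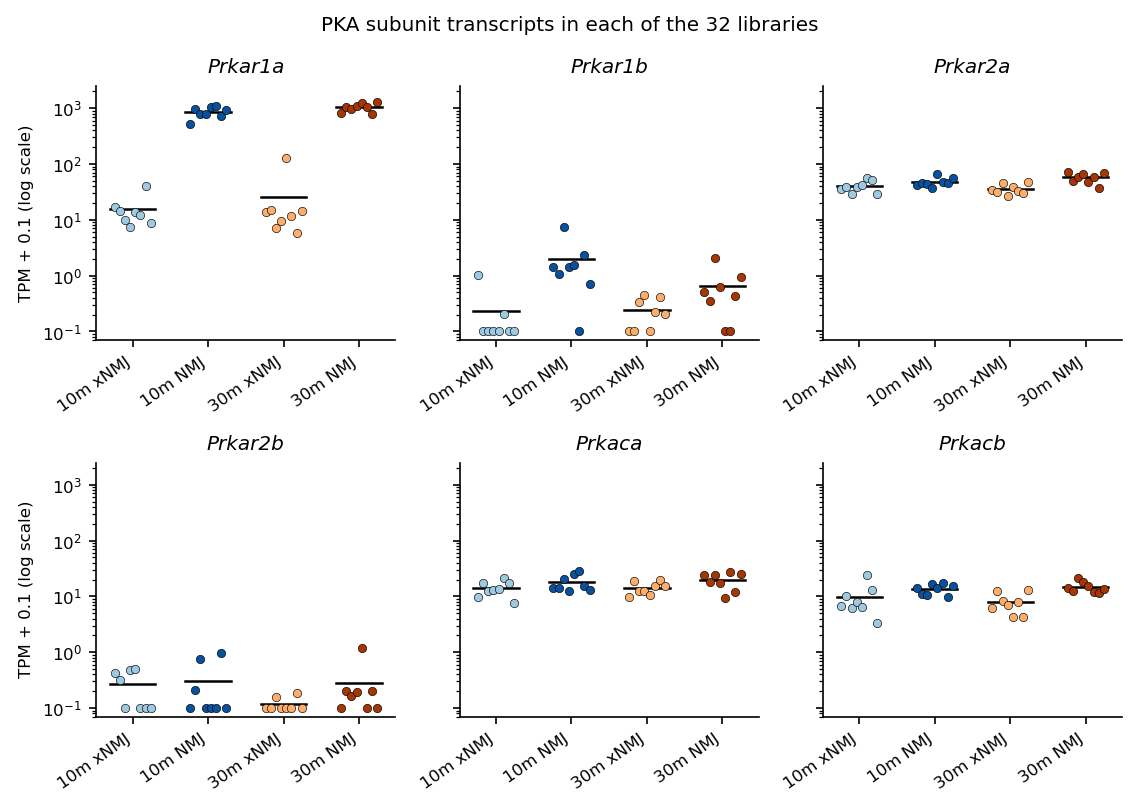
TPM + 0.1 (log scale) of the 6 PKA subunits in each of the 32 libraries, with 1 point per library and a line at the mean of each group. Prkar1a lies at 526 TPM or more in each NMJ library, while Prkar2a, Prkaca and Prkacb stay at 70.8 TPM or less in all groups and Prkar1b and Prkar2b lie near the lower end of the scale.

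A single library set the spread of Prkar1a in 30m xNMJ. Replicate 5 held 128 TPM, and the other 7 libraries had a mean of 10.9 ± 3.63 TPM (SD, n = 7). Without that library, the log2 fold change at 30 months was 5.88 (edgeR adjusted p = 5.1e-15). Replicate 5 also held 422 CPM (counts scaled to the TMM-normalized library total) summed over 7 genes of synaptic muscle nuclei, against 21.9 to 49.3 CPM in the other 30m xNMJ libraries. In 10m xNMJ, replicate 7 was the highest with 40.6 TPM of Prkar1a. Its synaptic sum of 43.5 CPM was the second highest of that group, whose other libraries had 20.5 to 44.0 CPM. The highest sum, 44.0 CPM, was that of replicate 4, which had the lowest Prkar1a of the group with 7.29 TPM.

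Windows upstream of the genes were read from RefSeq (GRCm38.p6) to show the sequence at the starts of Prkar1a and of the catalytic subunits, whose transcripts did not pass the test on the count scale. Each window reached from upstream of a start site to shortly after it. Searched on both strands were the N-box, CCGGAA, a site of ETS factors known from synaptic receptor genes, and the cAMP response element (CRE), TGACGTCA, which reads the same on both strands and contains its shorter core TGACG. In each line the match is in capitals, and the sequence runs along the strand of the gene. The N-box of Chrne, the epsilon subunit of the acetylcholine receptor, is shown as a reference, and for Prkacb the match farther from the start site is shown.
Prkar1a, CRE, chr11:109650889-109650918, plus strand: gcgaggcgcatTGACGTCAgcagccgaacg
Prkar1a, N-box, chr11:109650930-109650959, plus strand: cggtcggctggtTTCCGGtggagccgtcgc
Prkaca, N-box, chr8:83972883-83972912, plus strand: ggcgcgggagggTTCCGGagggccaatgga
Prkacb, N-box, chr3:146813025-146813054, minus strand: tgaccgcgtcacTTCCGGcgcgcccgcccg
Chrne, N-box, chr11:70619253-70619282, minus strand: cccaaacctagcCCGGAActaacaccctcc
Prkar1a was the only one of the 9 genes with a CRE, at 1 position that lay in 2 overlapping windows. A CRE was present in 2.03% of the 27025 genes of the table. An N-box was present in 6 of the 9 genes (Prkar1a, Prkar1b, Prkar2b, Prkaca, Prkacb and Pde4b) and in 16.7% of all genes. The 9 genes had more windows on average, 25 for 9 genes against 32851 for 27025, although Myo5a, Pde4d and Prkar2a had 1 each. The comparison by window is therefore closer. An N-box lay in 7 of their 25 windows and in 14.9% of all 32851, and a CRE in 2 of the 25 and in 1.79% of all. A match of this kind is a description of the letters and not a binding site.

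Prkar1b (chromosome 5, 139017306 to 139150001, minus strand), the other type I regulatory subunit, was rare in all groups. It had 1.92 ± 2.30 TPM at the NMJ and 0.132 ± 0.332 TPM outside it at 10 months (SD, n = 8), where in 10m xNMJ 6 of 8 libraries were listed at 0. At 30 months it had 0.542 ± 0.645 TPM in NMJ and 0.143 ± 0.146 TPM in xNMJ. The NMJ libraries of 10 months held 300 reads in all, of which the most were in replicate 3 with 7.38 TPM. Of these 8 libraries, 6 were above the highest 10m xNMJ library, and 1 had no read. The log2 fold change was 3.48 at 10 months (adjusted p = 0.051 by edgeR, SE 1.18), just above the threshold of 0.05. Without one library it ranged from 3.01 to 6.21, and over the other alternatives from 1.14, on log2(TPM + 1), to 5.36. It passed in 7 of 8 other ways of processing the data, for example with DESeq2 (adjusted p = 0.035), and in 9 of 32 fits without one library. Of the 10 libraries with at least 1 CPM of Prkar1b, 7 were 10m NMJ, so that the gene passed the filter mainly through the group where it was high, and these calls are no support for a difference. At 30 months the change was 1.31 (adjusted p = 0.56 by edgeR, SE 1.12), with a 95% interval of the fit from -0.98 to 3.6. Prkar1b overlaps Gm15672 on the same strand, a gene that also has a row in the tables.

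The type II subunit Prkar2a (chromosome 9, 108689314 to 108750436, plus strand) was the most abundant regulatory transcript of xNMJ regions. It had 40.1 ± 10.2 TPM in 10m xNMJ and 36.0 ± 7.94 TPM in 30m xNMJ, and 48.1 ± 8.91 and 57.5 ± 11.7 TPM in the NMJ groups (SD, n = 8). The groups overlapped at both ages. On the count scale its log2 fold change between NMJ and xNMJ was -0.18 at 10 months (95% interval -0.47 to 0.12, edgeR adjusted p = 0.51) and -0.14 at 30 months (-0.44 to 0.15, edgeR adjusted p = 0.64). These intervals leave room for changes of less than 0.5 in size, far from the change of Prkar1a. Prkar2b (chromosome 12, 31958476 to 32061296, minus strand), the other type II subunit, did not pass the filter. Its group means lay between 0.0181 and 0.203 TPM, and 27 of the 32 libraries held at most 3 reads.

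Neither catalytic subunit passed the test between regions on the count scale. Prkaca (chromosome 8, 83972993 to 83996443, plus strand), the main catalytic subunit of many tissues, had 17.7 ± 6.05 TPM at the NMJ and 13.9 ± 4.46 TPM outside it at 10 months, and 19.8 ± 6.68 and 14.0 ± 3.57 TPM at 30 months (SD, n = 8). Its log2 fold change was -0.12 at 10 months (95% interval -0.58 to 0.34, edgeR adjusted p = 0.80) and -0.12 at 30 months (-0.58 to 0.33, adjusted p = 0.82). Prkacb (chromosome 3, 146729574 to 146812990, minus strand) had 13.5 ± 2.81 TPM at the NMJ and 9.61 ± 6.62 TPM outside it at 10 months, and 14.6 ± 3.25 and 7.82 ± 3.30 TPM at 30 months. Its log2 fold change was 0.04 (95% interval -0.55 to 0.62, edgeR adjusted p = 0.96) at 10 months and 0.30 (-0.28 to 0.88, adjusted p = 0.62) at 30 months. The libraries overlapped between regions for both catalytic genes.

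The count and TPM scales differed by a general shift. Between NMJ and xNMJ, the median of all tested genes on the log2(TPM + 1) scale was 0.37 at 10 months and 0.49 at 30 months, but 0.00 and -0.01 with TMM-normalized counts. Of the genes past an adjusted p of 0.05, 91.9% and 98.3% were higher in NMJ by limma on log2(TPM + 1), compared with 56.3% and 54.1% by edgeR. On the log2(TPM + 1) scale Prkar2a was higher in NMJ by 0.28 at 10 months (limma adjusted p = 0.27) and 0.66 at 30 months (adjusted p = 0.0060), and Prkaca by 0.32 (adjusted p = 0.36) and 0.43 (adjusted p = 0.18). Prkacb passed at 30 months on this scale, with 0.89 (limma adjusted p = 0.015). Relative to the median of all genes, these differences at 30 months were 0.17 for Prkar2a, -0.07 for Prkaca and 0.39 for Prkacb. With log2(TPM + 0.1) they were -0.06, -0.28 and 0.24, so that the sign of Prkar2a turned. Prkar1a stood at 5.56 and 5.43 on these scales.

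**Figure D2:**
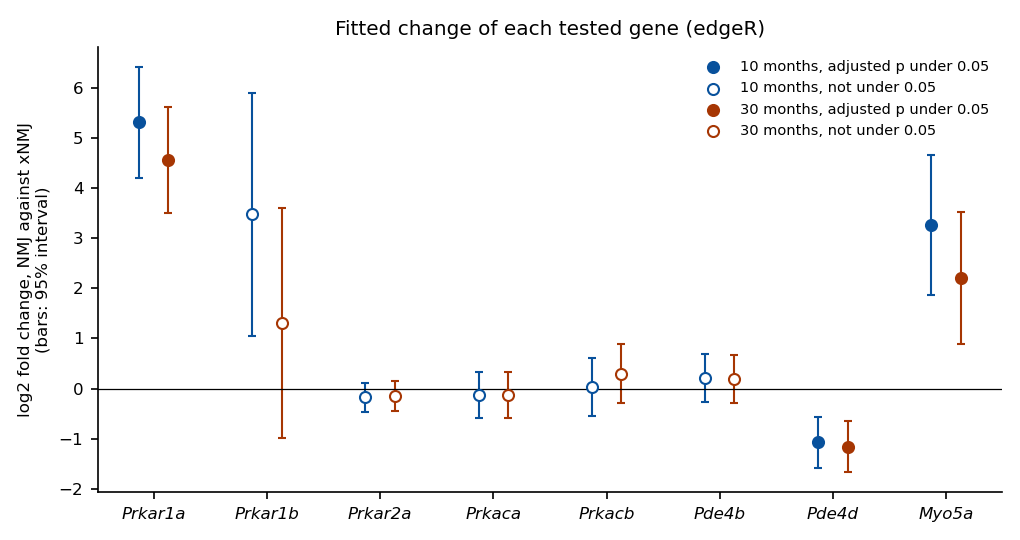
Log2 fold change of NMJ against xNMJ in the edgeR fit for the 8 genes that passed the filter, at 10 months (blue) and 30 months (brown), with 95% intervals. Filled points have an adjusted p under 0.05. Prkar1a has the highest value at both ages, and the points of Prkar2a, Prkaca and Prkacb lie between -0.18 and 0.30.

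The make-up of the PKA transcripts within a library does not depend on such a shift. Prkar1a made up 26.1 ± 8.67% of the summed regulatory TPM in 10m xNMJ and 30.1 ± 19.8% in 30m xNMJ. In NMJ regions its share was 94.3 ± 1.18% at 10 months and 94.6 ± 1.27% at 30 months (SD, n = 8). Prkar2a held the reverse position, with 73.3 ± 8.74% and 69.5 ± 19.6% in xNMJ, and 5.45 ± 1.09% and 5.35 ± 1.27% in NMJ. The NMJ libraries were between 92.0% and 96.2% for Prkar1a. The highest xNMJ library was 30m xNMJ replicate 5 with 76.5%.

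There were 2.56 ± 0.701 regulatory transcripts per catalytic transcript outside the NMJ and 29.5 ± 5.97 at the NMJ at 10 months, and 3.29 ± 3.38 and 33.3 ± 9.70 at 30 months. Without 30m xNMJ replicate 5, which had 11.6, the mean of 30m xNMJ was 2.11 ± 0.565 (SD, n = 7). When Prkar1a was left out, these ratios were 1.86 ± 0.455, 1.66 ± 0.334, 1.76 ± 0.580 and 1.71 ± 0.229. The excess of regulatory transcripts at the NMJ was therefore carried by Prkar1a. Of the catalytic TPM, Prkaca gave 61.9 ± 7.56% and 64.7 ± 8.67% in xNMJ and 56.0 ± 8.78% and 56.3 ± 10.3% in NMJ, with Prkacb as the rest. Transcript ratios say nothing of protein ratios, which were not measured here.

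**Figure D3:**
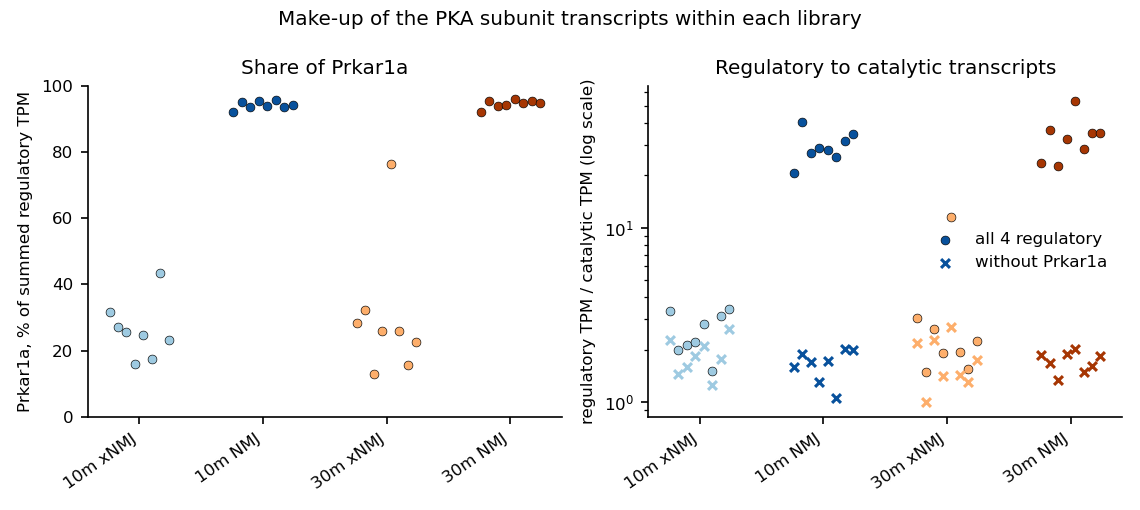
Share of Prkar1a in the summed regulatory TPM (left, percent) and regulatory TPM per catalytic TPM (right, log scale) in each library, with all 4 regulatory genes (circles) and without Prkar1a (crosses). In NMJ libraries the share lies between 92.0% and 96.2%, and without Prkar1a the ratios of the 4 groups overlap.

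Whether Prkar1a rose more than the other subunits was tested as a difference within each library, log2 CPM of Prkar1a minus log2 CPM of the other subunit. The gene was picked with its rise already known, so that the p values below are no independent support for that rise. Against Prkar2a the difference was -1.96 ± 0.62 outside the NMJ and 3.67 ± 0.34 at the NMJ at 10 months (SD, n = 8), a gain of 5.63 (SE 0.25). Against Prkaca the gain was 5.57 at 10 months and 5.62 at 30 months, and against Prkacb it was 5.26 and 5.10. For these 3 subunits, all NMJ libraries were above all xNMJ libraries at both ages, and an exact permutation test, two-sided, gave p = 1.6e-04 for each, the smallest possible for 8 libraries against 8. Against Prkar1b the gain was 2.69 (SE 0.77, exact permutation p = 0.0020) at 10 months and 4.73 (SE 0.90, exact permutation p = 4.7e-04) at 30 months. Against Prkar2b it was 5.71 (exact permutation p = 1.6e-04) and 4.91 (p = 3.1e-04). Adjusted over the 10 comparisons of 5 subunits at 2 ages, p was 2.2e-04 for Prkar2a, Prkaca and Prkacb and at most 0.0020 for the other two. Prkar2b was near 0 in most libraries, where log2 CPM rests on the prior count of 2, so that the gains against it restate mainly the rise of Prkar1a. Prkar1b was near 0 in most xNMJ libraries, but 7 of 8 libraries of 10m NMJ held between 15 and 90 of its reads, and the gain against it at 10 months was the smallest of the 10. That gain depended on the value added before taking logs, with 4.72 on log2(TPM + 1). The 4 comparisons with Prkar1b and Prkar2b are therefore no support that Prkar1a rose more than they did.

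Of the pair of cAMP phosphodiesterases, Pde4d (chromosome 13, 108449948 to 109953461, plus strand) was lower in NMJ on the count scale. At 10 months it ranged from 33.3 to 68.3 CPM at the NMJ and from 66.4 to 152 CPM outside it, so that 1 NMJ library lay above the lowest xNMJ library. Its median was 48.8 CPM at the NMJ and 103 CPM outside it at 10 months, and 50.8 and 104 CPM at 30 months. At 30 months, values reached from 66.8 to 210 CPM outside the synapse and from 21.2 to 78.6 CPM at the synapse, with some overlap. The log2 fold change was -1.07 (adjusted p = 0.0031 by edgeR, SE 0.25) at 10 months and -1.16 (adjusted p = 0.0019, SE 0.25) at 30 months. On the log2(TPM + 1) scale it was -0.27 (limma adjusted p = 0.46) and -0.30 (adjusted p = 0.36), no longer past the threshold, or -0.64 and -0.79 relative to the median of all genes. Pde4b (chromosome 4, 102087543 to 102607259, plus strand) did not pass on the count scale, with log2 fold changes of 0.21 (95% interval -0.27 to 0.68, edgeR adjusted p = 0.65) and 0.19 (-0.28 to 0.66, adjusted p = 0.71). Its TPM was 13.8 ± 6.42 and 21.9 ± 8.07 at 10 months and 17.2 ± 4.09 and 30.2 ± 6.11 at 30 months in xNMJ and NMJ, and limma on log2(TPM + 1) called it at both ages (0.66, adjusted p = 0.048, and 0.78, adjusted p = 0.017).

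Myo5a (chromosome 9, 75071015 to 75223688, plus strand) was higher in NMJ at a much lower level than Prkar1a. At 10 months it ranged from 3.09 to 20.7 TPM at the NMJ (median 9.21) and from 0 to 3.59 TPM outside it (median 0.516). At 30 months it ranged from 4.38 to 18 TPM at the NMJ (median 8.47) and from 0.333 to 4.59 TPM outside it (median 1.21). The means were 10.2 ± 6.83 and 1.12 ± 1.35 TPM at 10 months, and 9.89 ± 5.01 and 1.63 ± 1.43 TPM at 30 months (SD, n = 8). At 10 months, 6 of 8 NMJ libraries were above the highest xNMJ library, and at 30 months 7 of 8. The log2 fold change was 3.27 (adjusted p = 0.0011 by edgeR, SE 0.68) at 10 months and 2.21 (adjusted p = 0.023, SE 0.64) at 30 months. Without 30m NMJ replicate 4, the change at 30 months was 1.96 and no longer passed (adjusted p = 0.061). The 10m xNMJ libraries held 39 reads of Myo5a in all and the 10m NMJ libraries 1034.

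**Figure D4:**
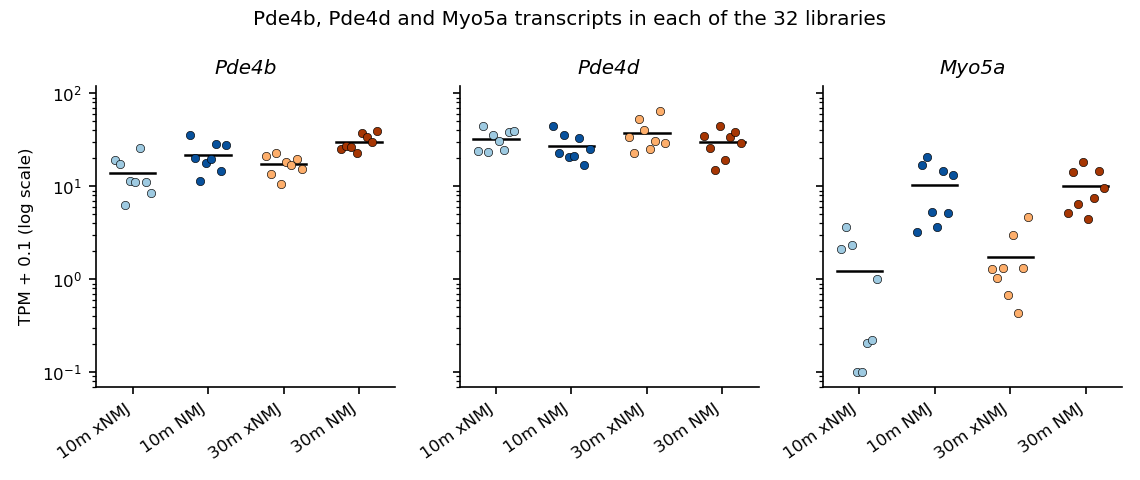
TPM + 0.1 (log scale) of Pde4b, Pde4d and Myo5a in each library, with 1 point per library and a line at the mean of each group. Myo5a means rise from below 2 TPM in xNMJ to about 10 TPM in NMJ, while the TPM values of Pde4b and Pde4d overlap between regions.

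None of the 8 tested genes passed the test for age in either region. In NMJ, 0.0% of all tested genes had an edgeR adjusted p under 0.05, although 372 genes had an unadjusted p under 0.05 and DESeq2 called 1 gene. In xNMJ the share was 0.0429%, or 6 genes, with 1322 genes at an unadjusted p under 0.05 and 84 called by DESeq2. Prkar1a had log2 fold changes with age of 0.16 in NMJ (95% interval -0.76 to 1.07, edgeR adjusted p = 1.0) and 0.90 in xNMJ (-0.03 to 1.83, adjusted p = 0.55), of which the latter was -0.41 without 30m xNMJ replicate 5. In TPM, 6 of 8 libraries of 30m NMJ were above the median of 10m NMJ, and the ratio of the means was 1.21. Prkar1b had a change of -2.08 in NMJ (95% interval -4.22 to 0.07, edgeR adjusted p = 1.0). For the interaction of age and region, 0.0% of the genes passed, 708 had an unadjusted p under 0.05 and DESeq2 called 9. Prkar1a had an interaction of -0.74 (edgeR adjusted p = 1.0), which was 0.56 without 30m xNMJ replicate 5 and so changed sign with 1 library.

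The 5 genes whose log2 CPM followed Prkar1a most closely over the 32 libraries, by the root mean square difference after centering each gene, were Cited1 (0.62), Nes (0.67), Prx (0.69), Calcrl (0.76) and Fam19a4 (0.77). The median difference of all tested genes was 2.92. Each gene was centered on its mean over all 32 libraries, so that the measure includes the change between regions. Nearness to Prkar1a therefore does not show that a gene varied with it within a group. Cited1 encodes a transcriptional coregulator, Nes the intermediate filament protein nestin, and Prx periaxin, a protein of myelinating Schwann cells. Calcrl encodes the receptor for calcitonin gene-related peptide, which couples to cAMP. The sixth was the acetylcholine receptor subunit Chrna1 (0.79), which is mentioned after its value was seen. Of the genes described above, Myo5a had rank 300 (1.9), Prkar1b rank 1728 (2.52), Prkar2a rank 6558 (2.90), and Pde4d, at rank 13084 (3.44), was among the genes least like Prkar1a.

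Around PKA, 125 further genes of the cAMP pathway had been listed by role, of which 102 were tested and 4 had no row and were not analysed here. At 10 months 14 of the 102 were higher and 9 lower in NMJ, 22.5% in all, and at 30 months 8 were higher and 7 lower, 14.7%. The shares of all tested genes, 6.5% higher and 5.05% lower at 10 months and 5.0% and 4.25% at 30 months, are the measure to read these counts against. The median log2 fold change of the 102 genes was 0.07 at 10 months and 0.08 at 30 months. By DESeq2 the counts were 19 and 11 at 10 months and 10 and 8 at 30 months. Over all 13990 genes DESeq2 gave 1228 higher and 814 lower at 10 months, and 942 and 769 at 30 months. On the log2(TPM + 1) scale, with its shift towards NMJ, 2681 of all 13990 genes were higher and 237 lower at 10 months. At 30 months 3501 of all genes were higher and 60 lower. Of the 102 genes, 30 were higher and 2 lower at 10 months, and 29 and 0 at 30 months. The 2 genes still lower at 10 months were Pde4a and Gnaz, and every lower call of 30 months given below was lost on that scale. Adgrg6, Gnai1, Adcy1, Pde3b and Myo5b had at least 1 CPM in fewer than 8 xNMJ libraries and passed the filter through NMJ libraries. Their 5 calls among the 14 at 10 months, and that of Adgrg6 at 30 months, are given as values and are no support.

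Receptors upstream of cAMP included the clearest rise. Of 11 tested, Calcrl, Ramp1 and Adgrg6 were higher in NMJ at both ages, and none was lower. Calcrl rose from 4.01 ± 1.27 to 127 ± 39.0 CPM at 10 months (log2 fold change 5.0, edgeR adjusted p = 3.2e-09) and from 7.68 ± 10.4 to 123 ± 55.6 CPM at 30 months (3.95, adjusted p = 1.6e-07). Ramp1, the partner that makes Calcrl a receptor for calcitonin gene-related peptide, rose from 133 ± 47.0 to 318 ± 140 CPM and from 145 ± 77.2 to 274 ± 135 CPM (SD, n = 8; edgeR adjusted p = 0.0035 and 0.044). At 30 months Ramp1 lost the call with insert size as a covariate (adjusted p = 0.066). Adgrg6, an adhesion receptor known from Schwann cells, was present at 5.94 ± 5.25 CPM at the NMJ and 0.26 ± 0.41 CPM outside it at 10 months.

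Of the 7 G protein alpha subunits acting on adenylyl cyclase, 2 were higher and 2 lower in NMJ at 10 months, and 0 higher and 3 lower at 30 months. Gnas, which stimulates the cyclase, was lower in NMJ at both ages. It went from 662 ± 143 to 407 ± 73.9 CPM at 10 months (log2 fold change -0.70, edgeR adjusted p = 0.0034) and from 627 ± 145 to 424 ± 89.6 CPM at 30 months (-0.57, adjusted p = 0.023). The inhibitory Gnaz was lower as well, by -1.98 at 10 months (edgeR adjusted p = 0.0036) and -1.89 at 30 months (adjusted p = 0.0061). With insert size as a covariate it did not pass at 10 months (-1.53, adjusted p = 0.18). Inhibitory Gnai1 was higher at 10 months (3.51, edgeR adjusted p = 0.028), from 0.41 ± 0.50 to 4.59 ± 3.61 CPM, with 1.89 (adjusted p = 0.27) at 30 months. The others that passed, outside the naming rule and named after their values were seen, were Gnai3, higher at 10 months (1.69, edgeR adjusted p = 0.042), and Gnai2, lower at 30 months (-0.96, adjusted p = 0.039). On the log2(TPM + 1) scale Gnas did not pass at either age, with -0.23 (limma adjusted p = 0.25) and 0.05 (adjusted p = 0.83).

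Among 9 adenylyl cyclases, which make cAMP, Adcy6 (log2 fold change 2.27, edgeR adjusted p = 0.012) and Adcy1 (3.83, adjusted p = 0.026) were higher in NMJ at 10 months, and none passed at 30 months. Adcy6 had 13.8 ± 6.15 CPM at the NMJ and 2.81 ± 3.05 CPM outside it at 10 months, but 10.2 ± 6.29 and 9.58 ± 9.25 CPM at 30 months. Among 15 phosphodiesterases, Pde4d included, 1 was higher and 2 were lower at 10 months, and 0 were higher and 3 lower at 30 months. At 10 months Pde4a had the clearer fall of the 2, from 50.5 ± 13.5 to 15.3 ± 4.15 CPM (log2 fold change -1.72, edgeR adjusted p = 2.0e-04). At 30 months, where Pde4d had the smaller adjusted p (0.0019 by edgeR), Pde4a went from 32.1 ± 10.1 to 12.2 ± 6.49 CPM (-1.40, adjusted p = 0.0024). On log2(TPM + 1) its change at 30 months was -0.74 (limma adjusted p = 0.064). Pde3b was higher at 10 months (3.08, edgeR adjusted p = 0.026) at a level of 3.31 ± 4.30 CPM. Pde7a, named after its values were seen, was the third that was lower at 30 months (-0.89, edgeR adjusted p = 0.015).

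A-kinase anchoring proteins were mixed, with 2 higher and 3 lower of 19 at 10 months and 1 higher and 2 lower at 30 months. Akap1, which anchors PKA at mitochondria, was lower, with 110 ± 25.1 and 57.0 ± 10.8 CPM at 10 months (log2 fold change -0.95, edgeR adjusted p = 0.0059) and -0.76 (adjusted p = 0.037) at 30 months. Akap12 was higher at 10 months (2.10, edgeR adjusted p = 0.018), and the muscle protein Cmya5 was lower (-0.59, adjusted p = 0.023). Named after their values were seen, Akap2 was lower at both ages (-0.98, edgeR adjusted p = 0.028, and -1.15, adjusted p = 0.011) and Akap6 was higher at both ages (0.82, adjusted p = 0.042, and 0.95, adjusted p = 0.019). Of 4 PKA inhibitors and related kinases, 1 passed, the inhibitor Pkia, with 335 ± 80.5 and 217 ± 33.8 CPM at 10 months (log2 fold change -0.63, edgeR adjusted p = 0.0056). On the log2(TPM + 1) scale Akap1, Cmya5 and Pkia lost their calls at 10 months, and Pkia was at 0.04 (limma adjusted p = 0.90).

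Of 6 other cAMP effectors, Rapgef3, the cAMP-activated exchange factor Epac1, was higher in NMJ at both ages. It rose from 7.37 ± 6.91 to 36.2 ± 11.6 CPM (log2 fold change 2.30, edgeR adjusted p = 4.5e-04) and from 11.2 ± 12.1 to 41.8 ± 9.99 CPM (1.9, adjusted p = 0.0034). Popdc2, a membrane protein that binds cAMP, was higher at 30 months (1.94, edgeR adjusted p = 1.1e-04), with 0.85 (adjusted p = 0.080) at 10 months. Of 13 CREB family members and coactivators, none passed at 10 months, and the acetyltransferase Ep300 was higher at 30 months (1.07, adjusted p = 0.029). Of 10 immediate targets of CREB, 1 was lower at 10 months, Ppargc1a, a coactivator of mitochondrial genes (-1.13, edgeR adjusted p = 0.044), and none passed at 30 months. Of 11 myosins V and partners, Myo5a included, 4 were higher and 1 lower at 10 months, and 2 were higher and 0 lower at 30 months. Mlph, an adaptor of myosin Va, was higher together with Myo5a at both ages (2.91, edgeR adjusted p = 0.0015, and 2.38, adjusted p = 0.0064), while Dynll2, a light chain shared by dynein and myosin V, was lower at 10 months (-0.76, adjusted p = 0.0028). Myo5b (5.01, edgeR adjusted p = 0.0082) and Dynll1 (1.43, adjusted p = 0.0050), also named after their values were seen, were the other two that were higher at 10 months.

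**Figure D5:**
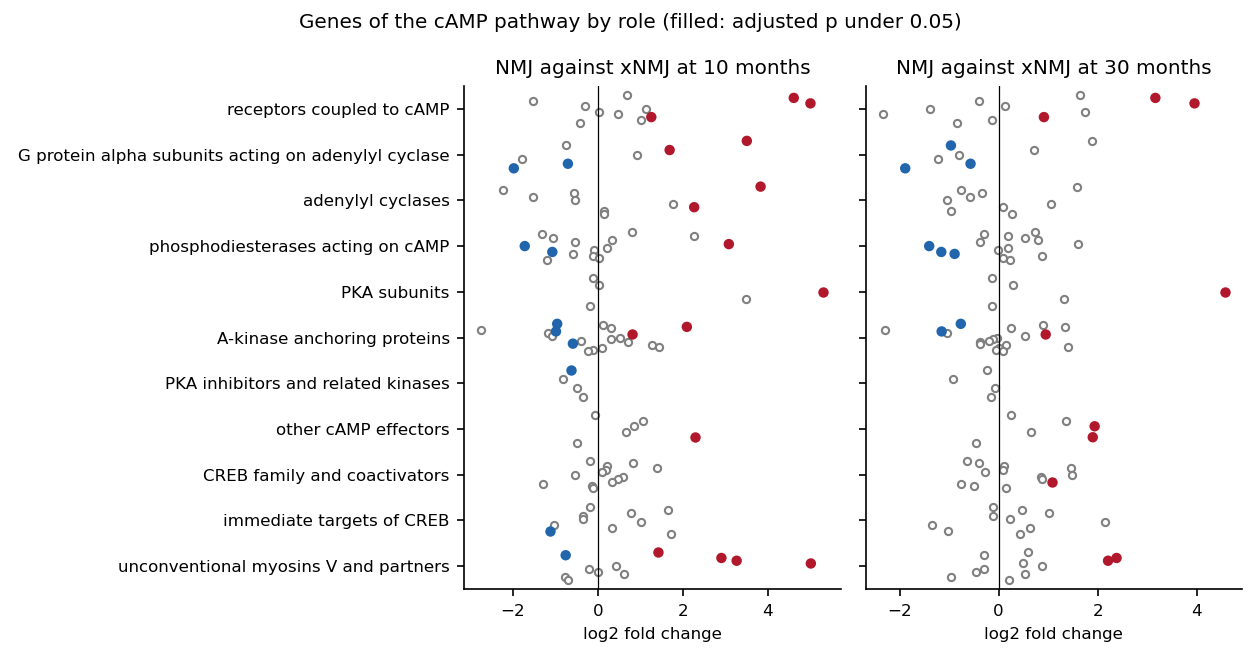
Log2 fold change (edgeR, NMJ against xNMJ) of each tested gene of the cAMP pathway by role, at 10 months (left) and 30 months (right). Filled points have an adjusted p under 0.05 (red higher, blue lower). Among the PKA subunits, 1 filled point stands alone at each age, that of Prkar1a.

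Markers of other cells moved with the capture of NMJ regions. All 7 markers of synaptic muscle nuclei were higher in NMJ at both ages, with summed levels of 1034 to 2133 CPM at the NMJ and 20.5 to 44.0 CPM outside it at 10 months, and Chrna1 as the most abundant. All 6 Schwann cell markers were higher as well, with sums of 222 to 311 CPM at the NMJ and 8.42 to 30.2 CPM outside it at 10 months, and 182 to 258 and 5.37 to 32.8 CPM at 30 months. Of 4 fibroblast markers, 3 were higher at both ages, with means of 152 and 1032 CPM at 10 months and 151 and 986 CPM at 30 months, mostly from Dcn. Of 5 muscle fibre markers, 2 were lower at each age, and their summed mean went from 74064 to 44149 CPM at 10 months and from 71120 to 44785 CPM at 30 months. Macrophage and muscle stem cell markers each gave 1 higher of 3 at both ages, and the macrophage marker Adgre1 was at 0 throughout 30m xNMJ. Of 4 endothelial and 4 pericyte and smooth muscle markers none was higher, and 1 of each was lower at 30 months. The 1 tested adipocyte marker, Plin1, was lower at both ages, and Adipoq was at 0 throughout 10m xNMJ. The 1 tested neuronal marker did not pass, and the neuronal markers summed to at most 2.41 CPM on average in any group. None of the 7 synaptic, 6 Schwann cell or 4 fibroblast markers was at 0 throughout a group. The part of these cells in the level of Prkar1a, Myo5a, Calcrl or Adgrg6 was not tested.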

How the data were processed

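The authors cut laser-captured regions, prepared poly(A) cDNA with SMART-Seq v4 and sequenced single-end reads. Per the labels and the study's methods, adapters were trimmed with Cutadapt 1.9.1 and reads were assigned by kallisto 0.43.1 to Ensembl protein-coding transcripts of GRCm38. A read that fitted several genes or transcripts was weighted by their number, which can lower the precision for genes with close relatives. As deposited, the counts were already summed per gene and whole, and the TPM values were corrected for transcript length by the authors. Both tables hold 24952 genes.

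Counts were tested with edgeR 4.0.16 (R 4.3.3) by the quasi-likelihood test with TMM normalization, with the 4 groups in 1 fit. The 13990 tested genes had at least 1 CPM in at least 8 libraries. For this filter, and for the numbers of libraries with at least 1 CPM, CPM was taken from library totals without TMM factors. With these factors, CPM is lower in NMJ and higher in most xNMJ libraries. Benjamini-Hochberg adjustment was over all tested genes at 0.05. Intervals are 95% intervals of the fit. Prkar1a was set against the other subunits by exact permutation over 12870 splits, adjusted over 10 comparisons. Levels of different genes were set side by side in TPM, and the test against the other subunits used how their log2 CPM difference, which is not per length, changed between regions. The scripts were tested on simulated data. The alternatives were DESeq2 1.42.0, its size factors, no filter, limma 3.58.1 on log2(TPM + 1) and log2(TPM + 0.1), insert size as a covariate, the compared groups alone, the replicate number as a block, and leaving out each library. A count of 3, the least taken as detected, was 0.182 to 0.745 CPM of the library totals without TMM factors. No pair of libraries was a duplicate, with a chi-square per gene of at least 17.0 within groups.

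The genes and lists were chosen with earlier results of these data known. From each list, up to 3 genes that passed were named, those with the smallest p at 10 months, along with the 5 genes nearest to Prkar1a. Sequences came from RefSeq, and gene positions from the annotation of GRCm38. The most abundant gene of one marker list is not reported here.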

Additional observations from a re-analysis of the deposited data

Results flagged for a closer look

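Of 36 sets of 8 libraries (9 genes in 4 groups), 7 held a library that stood apart by Dixon's test at 95%. Chance alone gives this in about 1 of 20 sets of normally distributed values, a rate that need not hold for CPM. Prkar1b in 10m xNMJ and Prkar2b in 30m NMJ had at most 3 counts in 7 of 8 libraries. In such a set, 1 library with more reads stands apart easily. For Prkar1a these were 10m xNMJ replicate 7 with 118 CPM, where the next library had 49.5 CPM, and 30m xNMJ replicate 5 with 443 CPM, where the next had 53.1 CPM. The 30m xNMJ library also had 422 CPM of synaptic markers, and the part of synaptic tissue in its Prkar1a level was not tested. For Prkar1b, 10m xNMJ replicate 1 had 2.18 CPM (next 0.232), 10m NMJ replicate 3 had 8.7 CPM (next 3.88) and 30m NMJ replicate 3 had 2.59 CPM (next 0.885). For Prkar2a, 10m NMJ replicate 5 had 198 CPM (next 151). For Prkar2b, 30m NMJ replicate 5 had 2.26 CPM (next 0.211).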

How the results depend on the processing

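In the 8 alternatives and the 32 fits without one library, Prkar1a was past the threshold at both ages. Its comparison with the other subunits was run with the 2 TPM scales, DESeq2 size factors, the replicate block and without each library, and 10 of 10 comparisons passed in each. Prkar1a was picked with its rise known, so that these comparisons are no independent support for that rise. The 4 comparisons with Prkar1b and Prkar2b, which had few reads, are no support at all. Prkar1b passed at 10 months in 7 of 8 alternatives other than leaving out a library, having passed the filter mainly through 10m NMJ. On log2(TPM + 1) and log2(TPM + 0.1), 3561 and 3681 of all 13990 genes passed at 30 months, compared with 1295 in the main fit. Of the 8 tested genes of the part, 5 passed on both scales (Prkar1a, Prkar2a, Prkacb, Pde4b and Myo5a) in place of 3. Without one library, 3 to 4 genes passed at 10 months and 2 to 3 at 30 months. Of the 102 other pathway genes, the 2 TPM scales gave 30 and 32 higher and 2 and 2 lower at 10 months, and 29 and 34 higher and 0 and 0 lower at 30 months. Over all 13990 genes they gave 2681 and 2786 higher and 237 and 228 lower at 10 months. At 30 months the counts of all genes were 3501 and 3627 higher and 60 and 54 lower. With no filter, 4 of the other pathway genes and 515 of all 24167 genes were lower at 30 months. Without one library the pathway counts were 10 to 15 higher and 7 to 12 lower at 10 months and 6 to 9 higher and 5 to 8 lower at 30 months. The alternatives for pathway counts were added after seeing the data.

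The changes below turned sign, none of which passed the test in the fit of all 32 libraries, and the cause was not tested except where 1 library is named. For Prkar1a, leaving out 30m xNMJ replicate 5 alone turned the change with age in xNMJ from 0.90 to -0.41 and the interaction from -0.74 to 0.56. On the TPM scales the change between regions was 0.28 and 0.28 for Prkar2a and 0.32 and 0.34 for Prkaca at 10 months, and 0.66 and 0.67 for Prkar2a and 0.43 and 0.45 for Prkaca at 30 months. The change with age in NMJ was 0.24 and 0.25 for Prkar2a and 0.083 and 0.11 for Myo5a on the TPM scales. For Prkacb it was -0.019 by DESeq2, -0.019 with DESeq2 size factors and -0.00081 with the compared groups alone. The interaction on the TPM scales was 0.20 and 0.21 for Prkar1a, 0.11 and 0.11 for Prkaca and 0.12 and 0.11 for Pde4b. It was -0.0042 and -0.0037 for Prkar2a by DESeq2 and its size factors, and 0.022 for Prkaca with insert size. Without one library, the change between regions at 10 months ranged from -0.088 to 0.31 for Prkacb. Without one library, the ranges of changes that took both signs with age in NMJ were -0.049 to 0.068 for Prkar2a, -0.05 to 0.15 for Prkaca, -0.058 to 0.096 for Prkacb, -0.052 to 0.17 for Pde4d and -0.41 to 0.035 for Myo5a. Without one library, the ranges of changes that took both signs with age in xNMJ were -0.41 to 1.27 for Prkar1a, -0.64 to 2.82 for Prkar1b, -0.13 to 0.0078 for Prkar2a, -0.065 to 0.12 for Prkaca, -0.42 to 0.025 for Prkacb and -0.032 to 0.24 for Pde4d. Without one library, the ranges of changes that took both signs in the interaction were -1.11 to 0.56 for Prkar1a, -0.019 to 0.11 for Prkar2a, -0.10 to 0.11 for Prkaca, -0.012 to 0.43 for Prkacb, -0.13 to 0.089 for Pde4b and -0.20 to 0.089 for Pde4d.

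Whether the replicate numbers shared by the groups pair the libraries was not decided. Deviations of same-numbered NMJ and xNMJ libraries correlated at -0.0016 to 0.19 at 10 months and -0.018 to 0.37 at 30 months. Of the 8 pairs, 4 and 1 were over 0.1. At each age, 4 of 8 libraries were nearest to their own number. An even draw among 8 candidates would give fewer, so that pairing of some libraries is not excluded. The main fit and the main permutation tests did not use it. With the replicate block, Prkar1a changed by 5.48 at 10 months and 5.54 at 30 months, Prkar1b passed at 10 months (4.69, edgeR adjusted p = 0.044), 11 other pathway genes were lower at 30 months, and the interaction of Prkar1a was 0.059. Under the block, 1829 and 1531 of all genes passed at the 2 ages, compared with 1615 and 1295.

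Prkar2b in all groups and Prkar1b in xNMJ had at most 3 counts in most libraries, which limits what can be detected for Prkar2b and makes the size of the Prkar1b changes uncertain. Intervals and floors cover counting error and the spread between libraries, and cover neither protein nor kinase activity.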
